A study of Mus musculus with 10 samples.

Results

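The genes described here encode the nuclear subunits of oxidative phosphorylation, and they were followed in the dentate gyrus of mice from 4 to 12 weeks of age. Members were all genes whose symbol names a subunit of complex I (Nduf followed by a, b, c, s or v and a digit), complex II (Sdha to Sdhd), complex III (Uqcr), complex IV (Cox4 to Cox8 followed by a letter) or ATP synthase (Atp5), on probe sets that the platform annotation gives to 1 gene. This rule gave 80 of the 19752 genes measured: 34 of complex I, 4 of complex II, 8 of complex III, 17 of complex IV and 17 of ATP synthase. All 80 are protein-coding in the RefSeq gene table, which holds 86 protein-coding genes under the same rule; the other 6 had no single-gene probe set and were not analysed in the tests. The rule used names only, and a gene with several probe sets was read from its brightest.

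The study hybridised total RNA from microdissected dentate gyri, the hippocampal region where granule neurons are born throughout life, to whole-transcript Affymetrix arrays. Its 5 groups were mice of 4, 6, 8, 10 and 12 weeks with 2 arrays each; all 10 carry the labels female, C56BL/6J (as the submitters write the strain) and dentate gyrus, and no treatment, transgene or genotype is given. Nothing in the labels tells whether the 2 samples of an age are different animals. P-values of comparisons between ages therefore measure only sample-to-sample spread, part of which may be technical. Those of a straight-line trend with age also take in departures of the age means from the line. In bulk tissue, fewer cells of a type and less RNA per cell cannot be told apart.

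Oxidative phosphorylation passes electrons from NADH (through complex I) and succinate (through complex II) to ubiquinone, on to complex III and cytochrome c, and finally to oxygen at complex IV. The protons pumped on the way drive ATP synthase. Neurons depend on it for most of the ATP that restores ion gradients after synaptic activity, and precursor cells are known to shift from glycolysis toward it as they become neurons. Most subunits are encoded in the nucleus, several have tissue-specific isoforms, and their genes share binding sites for nuclear respiratory factor 1 (NRF1), ETS factors such as GABP, and YY1.

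Promoter letters are shown first because some members share them, although the rule used names only: 31 of the members with a promoter window held at least 1 of the 3 motifs searched, and 35 held none. Of the 80 members, 66 had a RefSeq promoter window (GRCm38.p6), which runs from 250 bases before to 50 bases after an annotated start. Both strands were searched for GCATGCGC, the core of the NRF1 site, for CCGGAAG, the core of ETS sites, and for AAGATGGC, the core of YY1 sites; the NRF1 letters overlap their own reverse complement, and the ETS and YY1 letters can share the bases AAG. The NRF1 letters stood in the windows of 10 of the 66 members (15.2%), against 3.05% of all 27025 genes with windows. The ETS letters stood in 17 members (25.8%), against 9.93% of all genes, and the YY1 letters in 10 members (15.2%), against 3.19%. A match describes letters and not a bound site. In the lines that follow, 30 bases around the NRF1 letters are given 5′ to 3′ on the gene's strand, with the matched letters of either strand in capitals.
Ndufa11: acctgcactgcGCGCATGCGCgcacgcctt
Ndufa6: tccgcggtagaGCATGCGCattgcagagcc
Ndufa8: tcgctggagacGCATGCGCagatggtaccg
Sdhb: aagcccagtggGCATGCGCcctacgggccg
Uqcr11: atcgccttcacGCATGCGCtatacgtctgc
Uqcrc1: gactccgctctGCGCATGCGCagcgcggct
Cox6a1: acaggaacgggGCGCATGCGCgctctcgct
Atp5g2: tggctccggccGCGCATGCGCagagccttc
Atp5k: ctttcactgcgGCGCATGCGCctttctggc
Atp5l: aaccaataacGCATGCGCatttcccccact
Of these 10 matches 9 began before the start, and that of Uqcrc1 began 31 bases after it. The window of Uqcrc1 shown lies at chr9:108936667-108936696 on the plus strand, and that of Cox6a1 at chr5:115349102-115349131 on the minus strand.

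The YY1 letters stood in 7 of 31 complex I windows and 3 of 15 ATP synthase windows, and in none of the 3, 5 and 12 windowed genes of complexes II, III and IV. They are printed to show this position and their sharing between complexes, again as 30 bases with the match in capitals.
Ndufa3: ccgccaagaacAAGATGGCcgggagtaagt
Ndufa9: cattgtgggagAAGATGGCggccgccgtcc
Ndufb8: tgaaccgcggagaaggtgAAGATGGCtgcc
Ndufc1: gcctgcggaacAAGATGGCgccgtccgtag
Ndufs4: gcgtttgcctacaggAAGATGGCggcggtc
Ndufs6: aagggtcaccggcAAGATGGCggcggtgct
Ndufs7: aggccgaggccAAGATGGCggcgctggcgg
Atp5j: aaagtgtaggaAAGATGGCggagtcttagc
Atp5j2: accaggacttcAAGATGGCgtcactcggtg
Atp5pb: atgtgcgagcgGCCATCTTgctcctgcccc
In 8 of the 10 genes the match began after the start. The 7 complex I windows all have the letters downstream of the start, and that of Ndufs6 lies at chr13:73328433-73328462 on the minus strand. The age trend, described further on, was set beside these motifs as medians. Members with NRF1 letters had a median change over age of −0.092 log2 units (8 of 10 below 0), and those without −0.044 (46 of 56). With ETS letters the median was −0.049 and without −0.049; with YY1 letters it was −0.013 and without −0.052. These differences were not tested.

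Across genes, which are not independent replicates, arrays correlated at a Pearson r of 0.994 to 0.998. Of the 10, 8 weeks replicate 1 had the narrowest distribution (SD 2.12) and the lowest mean correlation with the others, 0.9952. The array of 6 weeks replicate 1 carried choroid plexus RNA, with 13.77 log2 units of Ttr against 8.87 to 10.15 elsewhere; the members' mean there stood 0.0076 above their own 10-array mean, within the range of the other arrays. Against the female label, Xist lay between 5.41 and 6.02 on all arrays while Eif2s3y, Kdm5d and Uty, all on the Y chromosome, had means of 8.97, 9.06 and 9.23 and were over the dim reference on all 10. The granule cell markers Prox1, C1ql2 and Calb1 stood between 11.43 and 12.73, far over the dim reference, which is the 95th percentile of 1207 olfactory, vomeronasal and trace amine receptor genes (mean 7.01).

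Subunit transcripts were nearly level from 4 to 12 weeks. In limma's linear trend with age, expressed as a log2 difference per 8 weeks, 0 of the 80 members passed a Benjamini-Hochberg adjusted p of 0.05. Of all genes 0.82% passed, a share so low that a count of 0 in 80 does not set the members apart. At an unadjusted p under 0.05, 4 members were counted (5%), all of them lower, against 11.7% of all genes (7.28% lower and 4.41% higher). Without 12 weeks replicate 2 this count was 0. The smallest adjusted p of a member was 0.31. The members' changes ran from −0.22 to 0.14, and 61 of them were smaller than 0.1 in size. All 80 had a 95% interval of the change (not adjusted for the number of genes) within 0.5 log2 units of 0, and 76 intervals held 0. The widest bounds were −0.43 for Uqcr11 and 0.37 for Cox8c. A member's median standard error was 0.066 against 0.084 over all genes.

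**Figure D1:**
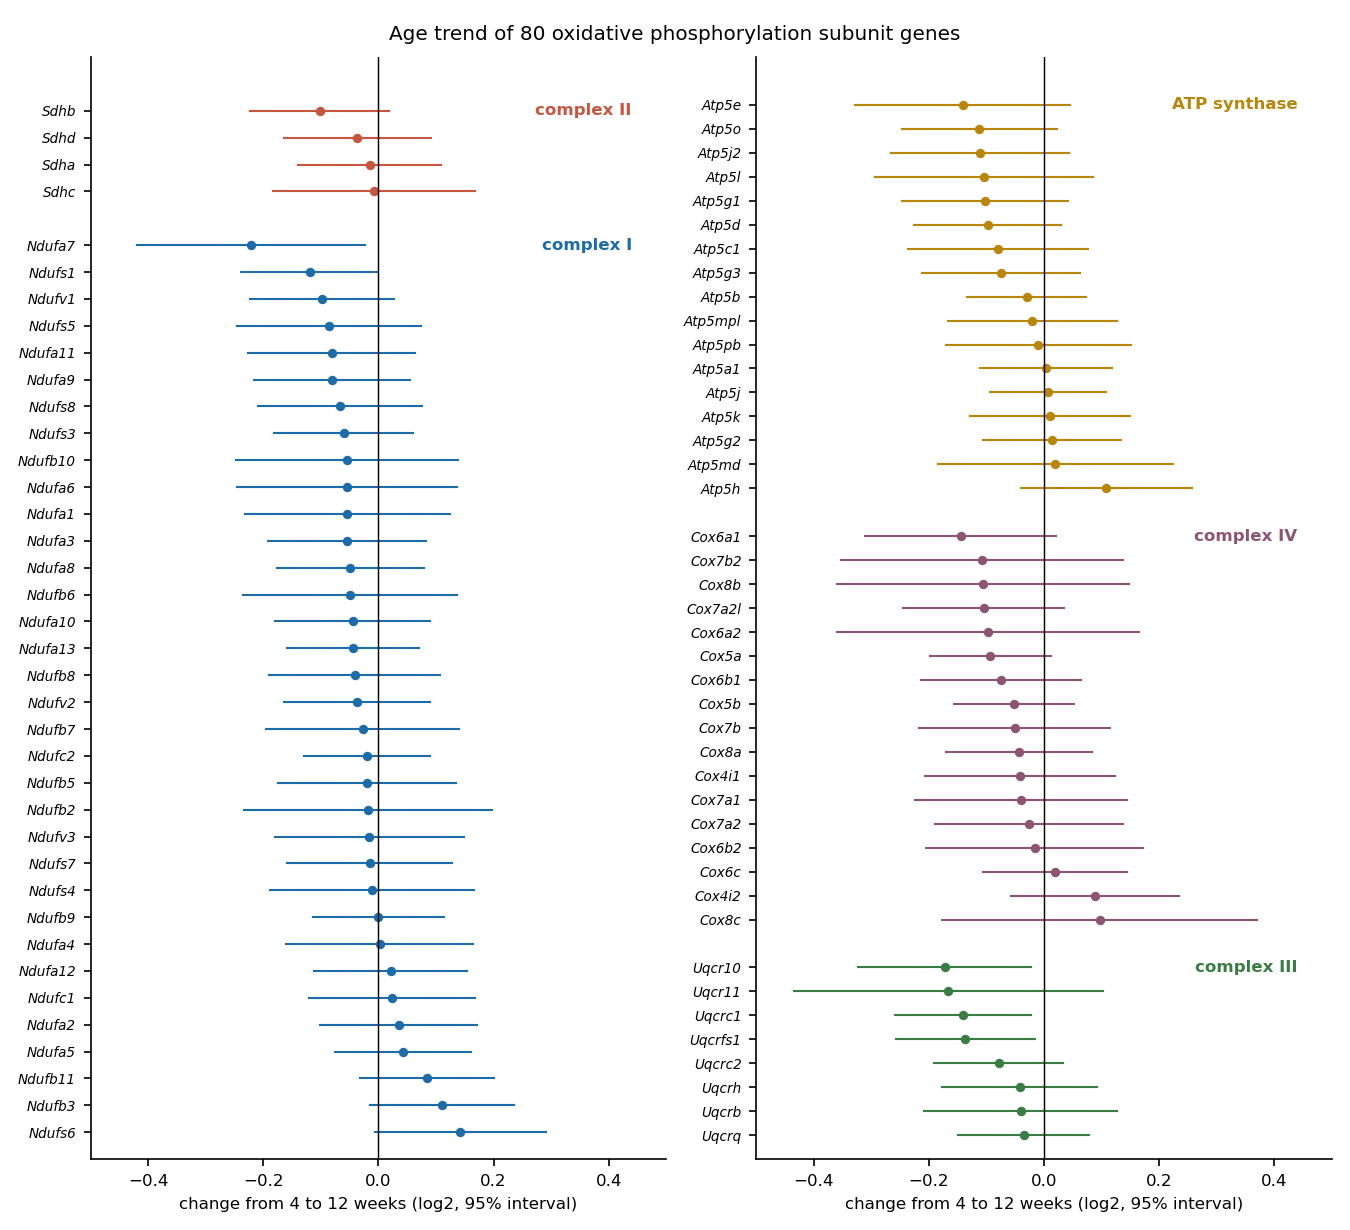
Change from 4 to 12 weeks of each of the 80 members (x axis, log2, from the limma age trend), grouped and coloured by complex; points are estimates and lines their unadjusted 95% intervals. The points lie between −0.22 and 0.14, and 4 intervals, those of Ndufa7, Uqcr10, Uqcrc1 and Uqcrfs1, do not reach 0.

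The small changes lay mostly on 1 side. Of the 80 members 63 had changes below 0 (78.8%), against 48.8% of all genes and 60.7% of the genes with a mean of at least 9 log2 units; among the 73 members that bright, 58 (79.5%) were below 0. The median was −0.043 for the members and 0.0034 for all genes. With quantile normalization the split was 53 of 80 below 0 (66.2%, against 47.7% of all genes) and the median −0.023. Without 4 weeks replicate 2 it was 54 of 80 and the median −0.029. Both 12-week arrays stood below both 4-week arrays for 36 members (45%, against 22.2% of all genes), and above them for 7 (8.75%, against 21.6%). Age means went down at each of the 4 steps for Atp5d, Cox5a, Ndufa7, Ndufs1 and Uqcrfs1 (6.25%, against 2.23% of all genes) and up at each for Ndufs6 (1.25%, against 1.16%).

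Complex III, which moves electrons from ubiquinol to cytochrome c, had the median farthest from 0 in the deposited values, but not without 4 weeks replicate 2, when that of complex II was −0.077 and that of complex III −0.060. All 8 members were below 0, also with quantile normalization and median centring, with a median of −0.11 (−0.083 with quantile normalization). This did not hold in every alternative: Uqcrb was below 0 in 19 of 21 fits (highest 0.12) and Uqcrh in 20 (highest 0.021). The other members of the complex were below 0 in all 21. Of the 4 members with an unadjusted p under 0.05, 3 belong to it, and none passed after adjustment. Uqcrc1 (chromosome 9, 108936648 to 108949641), a core protein of the complex, had levels of 11.94 and 11.93 at 4 weeks, 11.91 and 11.98 at 6, 11.97 and 11.90 at 8, 11.87 and 11.89 at 10, and 11.80 and 11.78 at 12 weeks. The arrays up to 8 weeks overlapped, and the 12-week arrays were the lowest of the 10. Its change was −0.14 ± 0.05 (SE, limma adjusted p = 0.31), or 1.10-fold lower, and lay between −0.21 and −0.069 in 21 alternative fits.

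Uqcr10 (chromosome 11, 4701968 to 4704344), a small membrane subunit, read 10.56 and 10.67 at 4 weeks, 10.53 and 10.60 at 6, 10.52 and 10.48 at 8, 10.45 and 10.57 at 10, and 10.52 and 10.33 at 12 weeks. The 12-week arrays lay below the 4-week arrays, but replicate 1 of 12 weeks was within the range of 6 to 10 weeks. The change was −0.17 ± 0.07 (adjusted p = 0.34). Uqcrfs1 (chromosome 13, 30540312 to 30545316), the Rieske iron-sulphur protein that takes the first electron from ubiquinol, read 10.01 and 10.16, 10.04 and 10.08, 10.05 and 10.01, 9.99 and 9.98, and 9.97 and 9.93 in order of age. Its arrays of 10 and 12 weeks were all below those of 4 to 8 weeks. The change was −0.14 ± 0.06 (adjusted p = 0.35). Uqcr11 differed more between replicates (11.48 and 11.84 at 4 weeks, 11.34 and 11.75 at 10), and its change of −0.17 ± 0.12 did not stand out from that spread. The other 4, the core protein gene Uqcrc2, the hinge protein gene Uqcrh and the ubiquinol-binding subunit genes Uqcrb and Uqcrq, had changes of −0.079, −0.042, −0.041 and −0.035. In all, 6 of the 8 had both 12-week arrays below both 4-week arrays, a position that 22.2% of all genes had.

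**Figure D2:**
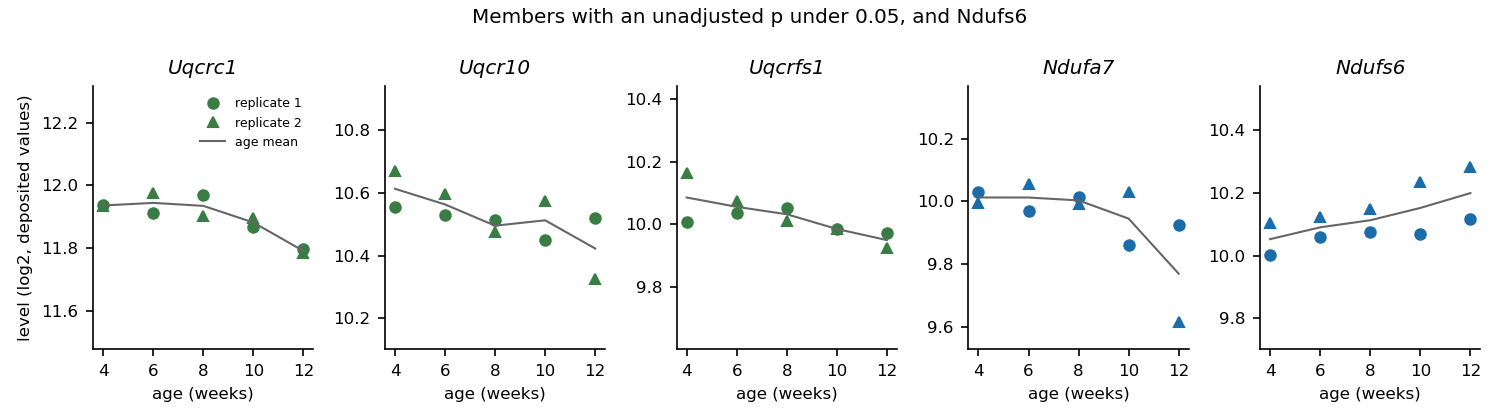
Levels (y axis, log2, deposited values; each panel spans the same width around the gene's mean) by age in weeks of the 4 members with an unadjusted p under 0.05 and of Ndufs6, the member with the largest positive change; circles and triangles are the arrays of replicates 1 and 2 and lines join the age means. The 12-week arrays of Uqcrc1 (11.80 and 11.78) are its lowest, and replicate 2 of 12 weeks sets Ndufa7 apart.

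Complex I, the NADH dehydrogenase that is the main entry of electrons, had 26 of 34 members below 0 and a median of −0.040. The median was −0.015 with 20 of 34 below 0 after quantile normalization, and −0.016 or −0.014 if replicate 2 of 4 or of 12 weeks was left out. The largest negative change was that of Ndufa7, an accessory subunit (chromosome 17, 33824572 to 33838316), with levels of 10.03 and 9.99 at 4 weeks, 9.97 and 10.06 at 6, 10.02 and 9.99 at 8, 9.86 and 10.03 at 10, and 9.93 and 9.61 at 12 weeks. A single array, 12 weeks replicate 2, stood apart below all others. The change was −0.22 ± 0.09 (adjusted p = 0.36), and −0.093 without 12 weeks replicate 2. Next came the iron-sulphur core subunit gene Ndufs1 (−0.12 ± 0.05, adjusted p = 0.43) and Ndufv1, whose product binds NADH and the flavin (−0.098 ± 0.057, adjusted p = 0.57). The largest positive change was that of Ndufs6, a zinc-binding accessory subunit of the NADH-oxidising arm, at 10.00 and 10.10, 10.06 and 10.12, 10.08 and 10.15, 10.07 and 10.24, and 10.12 and 10.28 from 4 to 12 weeks. Replicate 2 read higher than replicate 1 at each of the 5 ages, by about as much as the ages differed. The change was 0.14 ± 0.07 (adjusted p = 0.45). The membrane-arm subunit genes Ndufb3 (0.11 ± 0.06) and Ndufb11 (0.084 ± 0.053) followed. Both 12-week arrays lay below the 4-week arrays for 13 of the 34 members (22.2% of all genes) and above them for 5 (21.6% of all genes). Ndufa4, counted here by its symbol although its product is found in complex IV, had a change of 0.0021 ± 0.0745.

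Complex II, succinate dehydrogenase, is the enzyme that the respiratory chain shares with the tricarboxylic acid cycle. Sdha, its flavoprotein, had a change of −0.015 ± 0.057 and Sdhb, its iron-sulphur protein, one of −0.10 ± 0.06 (adjusted p = 0.53). Sdhc and Sdhd, the membrane anchors, had −0.0079 ± 0.0802 and −0.037 ± 0.059. Sdhb read 11.25 and 11.30 at 4 weeks and 11.21 and 11.15 at 12, with values up to 11.34 at 6 weeks. The mean over the 4 genes was highest on the 8-week arrays, 0.055 and 0.039 over its 10-array mean, and lowest at 12 weeks, at −0.057 and −0.029. In the other 4 complexes the 8-week arrays were not the highest. In quantile-normalized values the median of complex II was 0.0021 with 2 of 4 below 0, against −0.026 as deposited; leaving out an array of 4 weeks gave −0.050 (replicate 1) or −0.077 (replicate 2), and leaving out 12 weeks replicate 1 gave 0.0049.

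**Figure D3:**
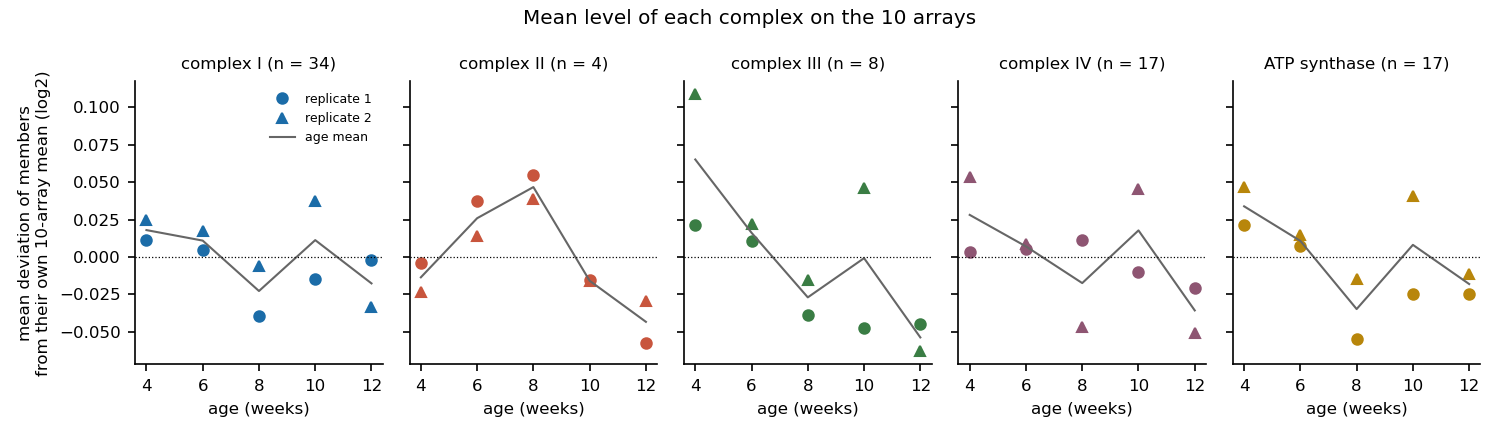
Mean level of the members of each complex on each array, as the deviation from the members' own 10-array mean (y axis, log2) against age in weeks; circles and triangles are replicates 1 and 2, and lines join the age means. Complex III runs from 0.11 and 0.022 at 4 weeks to −0.044 and −0.063 at 12 weeks, and its 10-week replicates, at −0.048 and 0.046, lie apart.

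Complex IV, cytochrome c oxidase, had 14 of 17 members below 0 with a median of −0.051, and 14 of 17 also after quantile normalization. Its largest negative changes were those of Cox6a1 (−0.14 ± 0.08, adjusted p = 0.51), and of the low-signal genes Cox7b2 (−0.11 ± 0.11) and Cox8b (−0.11 ± 0.12). Cox6a1 read 12.39 and 12.55 at 4 weeks, 12.31 and 12.38 at 6, 12.19 and 12.34 at 8, 12.34 and 12.37 at 10 and 12.32 and 12.25 at 12 weeks. Both 4-week arrays were its highest, with replicate 1 close to 6 weeks replicate 2. The positive changes were those of Cox8c (0.097 ± 0.125, adjusted p = 0.85), Cox4i2 (0.089 ± 0.067) and Cox6c (0.019 ± 0.057).

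Several complex IV subunits have an isoform for most tissues and another for muscle, testis or lung. Each gene was set only against the dim reference of the same arrays, since probe sets of different genes are not comparable in level. The general isoforms Cox4i1, Cox6a1, Cox6b1, Cox7a2, Cox7b and Cox8a were far over it, with means of 11.65, 12.34, 12.76, 12.07, 13.39 and 13.14. The muscle-type genes Cox6a2, Cox7a1 and Cox8b had means of 8.57, 8.36 and 7.56, the lung-enriched Cox4i2 7.79, and the testis-type genes Cox6b2 and Cox8c 7.58 and 7.44. All of these lay over the reference on every array. Cox7b2, another testis-type gene, had a mean of 6.24 and was over it on 0 of 10 arrays, the only one of the 80 members below. Changes of these 7 genes ran from −0.11 to 0.097, with standard errors up to 0.13, and 0 passed. Cox7a2l had a change of −0.10 ± 0.06 (adjusted p = 0.60), and its other probe set gave −0.0066.

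**Figure D4:**
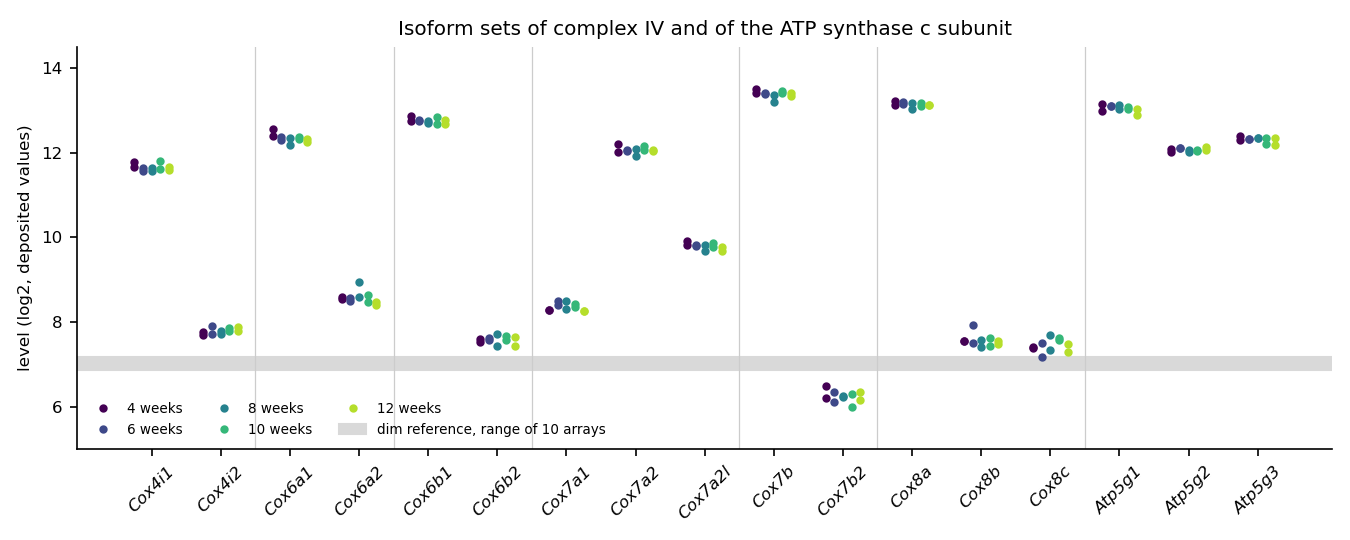
Levels (y axis, log2, deposited values) on the 10 arrays of the isoform sets of complex IV and of the ATP synthase c subunit, coloured by age; the grey band is the range over arrays of the dim reference, with a mean of 7.01. Each gene is read against the band and not against another gene; Cox7b2, at 6.24, is the only one under it.

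ATP synthase had 11 of 17 members below 0 and a median of −0.030, or −0.032 with 9 of 17 below 0 after quantile normalization. Without 4 weeks replicate 2 the median was −0.013, and without 10 weeks replicate 2 it was −0.046. The catalytic head genes Atp5a1 and Atp5b had changes of 0.0029 ± 0.0527 and −0.030 ± 0.048, and Atp5b stood at 13.66 ± 0.01 at 4 weeks and 13.63 ± 0.01 at 12 weeks (SD, n = 2). The central stalk genes Atp5c1, Atp5d and Atp5e had −0.080, −0.098 and −0.14 ± 0.09 (adjusted p = 0.59 for Atp5e, the largest negative change of the enzyme). The 3 genes for the c subunit, which encode precursors of the same mature ring protein, had −0.10 ± 0.07 (Atp5g1), 0.014 ± 0.055 (Atp5g2) and −0.075 ± 0.063 (Atp5g3). In the peripheral stalk Atp5o had −0.11 ± 0.06 and Atp5h 0.11 ± 0.07, the largest positive change (adjusted p = 0.61). Atp5h read 12.43 and 12.31 at 4 weeks and 12.47 and 12.54 at 12 weeks, so these ages did not overlap, but 8 weeks replicate 1 at 12.28 was lower than both. Of the small membrane subunits, Atp5j2 had −0.11 ± 0.07, Atp5l −0.10 ± 0.09 and Atp5md 0.019 ± 0.093.

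Many of these genes have processed pseudogenes, and 16 members had more than 1 probe set, 40 in all. The probe sets of 15 of these genes had changes of 1 sign. The exception was Cox6c, at 0.019 and −0.021. The 6 probe sets of Atp5l ran from −0.16 to −0.075, the 3 of Atp5h from 0.11 to 0.14, and those of Uqcr11 were −0.17 and −0.15. Signal from near-identical copies cannot be separated in such genes.

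The comparison of 12 with 4 weeks, the ends of the series, called 0.516% of all genes in limma at an adjusted p under 0.05. It called 0 of 80 members, and at so low a share this does not set them apart. At an unadjusted p under 0.05 it counted 2 (2.5%, against 9.57%), Ndufa7 (−0.24 ± 0.10, adjusted p = 0.50) and Uqcrc1 (−0.15 ± 0.06, adjusted p = 0.50). The largest positive difference was that of Ndufs6 (0.15 ± 0.09). Of the members 67 were below 0 (83.8%, against 49.7%), with a median of −0.059. The moderated F-test over any ages called 0 members (0.167% of all genes), with 0 at an unadjusted p under 0.05 (8.46%).

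The 4 successive steps called 0 members and 0 of all genes (0%) in limma at an adjusted p under 0.05. At an unadjusted p under 0.05 they counted 0, 0, 1 and 0 members, against 4.13%, 6.25%, 4.79% and 5.59% of all genes. From 4 to 6 weeks the members' median was −0.015 with 53 below 0 (66.2%, against 47% of all genes), and the extremes were Uqcrb (−0.15 ± 0.08) and Cox7a1 (0.17 ± 0.08). Without 4 weeks replicate 2 that median was −0.0006, and without replicate 1 it was −0.029. From 6 to 8 weeks the median was −0.025 with 58 below 0 (72.5%, against 45.2%), between Cox8b (−0.22 ± 0.13) and Cox6a2 (0.23 ± 0.11); without 6 weeks replicate 1 the median was −0.043. From 8 to 10 weeks the members' median was 0.038 while that of all genes was −0.023, and 25 members were below 0 (31.2%, against 60.1%). Without 8 weeks replicate 1, the array of narrow distribution, the median of this step was 0.015 with 30 below 0, and without 10 weeks replicate 2 it was 0.0063. Atp5md was the 1 member with an unadjusted p under 0.05 in a step (0.21 ± 0.08, adjusted p = 0.999): it read 13.26 and 13.45 at 8 weeks and 13.53 and 13.60 at 10. Cox6a2 had the lowest value of this step (−0.20 ± 0.11). From 10 to 12 weeks the median was −0.036 with 60 below 0 (75%, against 53%), and the extremes were the low-signal genes Cox8c (−0.21 ± 0.13) and Cox7b2 (0.12 ± 0.13). Without 10 weeks replicate 2 that median was −0.0088. This array stood higher than replicate 1, at 0.038 against −0.019 for the mean deviation over members.

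Genes around the subunits were taken from lists chosen by function. The unadjusted counts given for these lists stand beside 11.7% of all genes with an unadjusted p under 0.05 in the limma age trend. Of the structural genes outside the symbol rule, Ndufab1, the acyl carrier protein of complex I, had a change of 0.0013 ± 0.0543, Cyc1 (cytochrome c1 of complex III) −0.077 ± 0.056 and Cycs (cytochrome c) 0.033 ± 0.083. Of 14 assembly factors for complex I, 0 passed (1 at an unadjusted p under 0.05) and the values ran from −0.15 (Foxred1) to 0.16 (Tmem186). Of 10 for complexes II and III, 0 passed (0 unadjusted), between Sdhaf4 (−0.16) and Lyrm7 (0.062), and of 19 for complex IV, 0 passed (2 unadjusted), between Lrpprc (−0.14) and Coa5 (0.15). Of 4 assembly and inhibitor genes of ATP synthase 0 passed (2 unadjusted). The F1 assembly chaperone genes stood on opposite sides, Atpaf1 at 0.20 ± 0.06 (adjusted p = 0.17) and Atpaf2 at −0.23 ± 0.09 (adjusted p = 0.32).

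All 13 measured genes of the tricarboxylic acid cycle, which supplies NADH and succinate to the chain, were below 0, with a median of −0.076. Of all genes 48.8% were below 0, and of those with a mean of at least 9 log2 units 60.7%. This list was not followed in the alternative fits, and 0 of its genes passed (1 unadjusted). They ran from Dlst (−0.15 ± 0.06, adjusted p = 0.30), a subunit of the oxoglutarate dehydrogenase complex, to Ogdh (−0.024 ± 0.053) of the same complex. Among 11 genes of pyruvate entry into mitochondria, 1 passed. It was the only gene to pass in any of the related pathway lists, whereas 0.82% of all genes passed. With so many genes searched, 1 call does not set pyruvate entry apart. Pdk4, a kinase that inactivates pyruvate dehydrogenase, rose by 0.41 ± 0.08 (adjusted p = 0.046). It read 8.63 and 8.69 at 4 weeks, 9.01 and 8.93 at 6, 8.97 and 8.90 at 8, 8.93 and 9.04 at 10, and 9.22 and 9.11 at 12 weeks. The 4-week arrays were its lowest and the 12-week arrays its highest, with no order between 6 and 10 weeks. Its adjusted p lay between 0.013 and 0.64 over the 21 alternatives and was under 0.05 in 11 of them. It did not pass without either 4-week array (0.21 without replicate 1, 0.18 without replicate 2), either 12-week array (0.16 and 0.10), 6 weeks replicate 2 (0.061), 8 weeks replicate 2 (0.066) or 10 weeks replicate 2 (0.088), nor with the replicate block (0.066). In these 8 fits the change was 0.35 to 0.43. It also did not pass without both 12-week arrays (0.37, adjusted p = 0.30) or without both 4-week arrays (0.25, adjusted p = 0.64). The lowest value in the list was that of Pdhx (−0.17 ± 0.06), a structural component of pyruvate dehydrogenase.

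Of 17 regulators of mitochondrial biogenesis and transcription, 0 passed (1 unadjusted), with a median of 0.0056. The coactivator gene Ppargc1a, master regulator of the programme, had a change of 0.0056 ± 0.0556, and its relative Ppargc1b 0.18 ± 0.05 (adjusted p = 0.19). The genes of the factors whose letters were searched above had −0.065 ± 0.086 (Nrf1), −0.17 ± 0.09 (Gabpa, the lowest of the list) and 0.056 ± 0.050 (Yy1). Among 13 nucleotide and phosphate carriers, uncoupling proteins and pores, 0 passed (0 unadjusted), between Slc25a27 (−0.13) and Slc25a31 (0.20, dim). Of 77 mitochondrial ribosomal protein genes 53 were below 0 (48.8% of all genes were), with a median of −0.027, and 0 passed (2 unadjusted). Of 53 cytosolic ribosomal protein genes 23 were below 0, with a median of 0.021, and 0 passed (2 unadjusted). The extremes were Mrps24 (−0.14 ± 0.06) and Mrpl51 (0.25 ± 0.11), and Rpl12 (−0.33 ± 0.19) and Rpl14 (0.28 ± 0.15). Rpl12 and Rpl14 had means of 7.72 and 8.78 log2 units.

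**Figure D5:**
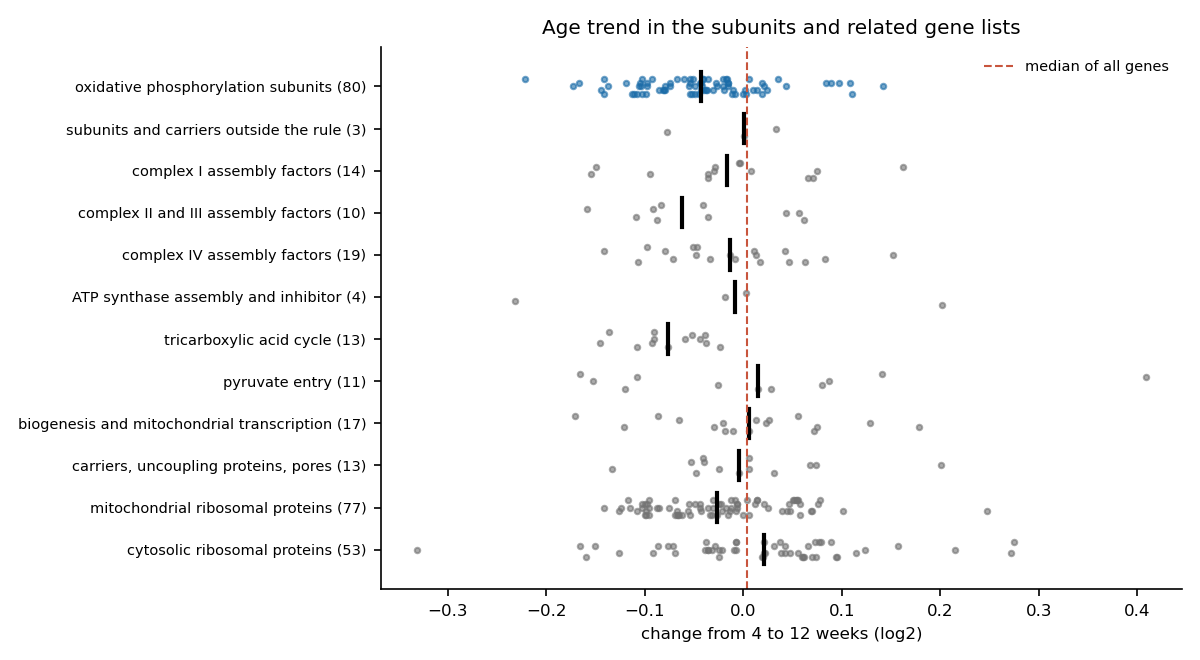
Change from 4 to 12 weeks (x axis, log2) of each gene in the subunit set and in 11 related lists, with the number of genes in brackets; points are genes, black bars the list medians and the dashed line the median of all genes, 0.0034. The subunits (median −0.043) and the 13 genes of the tricarboxylic acid cycle (−0.076) lie mostly left of the line, and the point at 0.41 is Pdk4.

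In the age trend 6 of 10 newborn neuron and 5 of 7 cycling cell markers fell at an adjusted p under 0.05. So did 5 of 7 oligodendrocyte precursor markers and 5 of 7 myelin markers, whereas 0.82% of all genes passed in either direction. Every measured marker of these 4 lists had a change below 0, against 48.8% of all genes. The mean level of the newborn neuron markers was 10.39 and 10.46 at 4 weeks and 9.54 and 9.55 at 12, and that of the myelin markers 11.02 and 10.98 against 10.40 and 10.45. Cycling markers averaged 7.87 and 7.87 against 7.24 and 7.31, and precursor markers 9.37 and 9.35 against 8.74 and 8.80. The genes of these 4 lists had 10-array means over the dim reference (mean 7.01). Those of the cycling markers Top2a (7.15) and Mki67 (7.29) were close to it. Of 10 mature granule cell markers 1 passed with a rise (Ntng1) and 1 with a fall (Tdo2), and 7 had changes above 0. Of the 8 astrocyte and 6 interneuron markers, 0 passed (1 unadjusted in each list), with medians of −0.11 and −0.089. Nor did any of 6 microglia, 5 endothelium, 8 choroid plexus, 3 CA1, 3 CA2 and CA3 and 3 mossy cell markers pass (unadjusted counts of 3, 2, 1, 0, 0 and 0, against 11.7% of all genes). Their medians were 0.13, 0.24, −0.21, −0.082, 0.058 and −0.15. The choroid plexus markers averaged 9.24 on 6 weeks replicate 1 and 7.61 to 7.83 on the other arrays. In 12 versus 4 weeks their median was 0.031. The part of all these cell types in the members' changes was not tested.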

How the data were processed

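Microarray expression values of total RNA from dentate gyri were analysed in 10 samples, 2 at each of 5 ages. The deposited values are taken as log2 expression per probe set, since they are continuous with array medians of 8.27 to 8.31; the base of the logarithm and how probe signals were corrected, summarised and normalized are not given in the sources used here. The genome build was mm10, per the submitters' processing notes.

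The table holds 25254 probe sets, of which the platform annotation gives 21496 to 1 gene, 1565 to several and 2193 to none. Single-gene probe sets gave 19752 genes with no filter on dim genes. Every gene was fitted with limma 3.58.1 in R 4.3.3 (lmFit, eBayes, two-sided, Benjamini-Hochberg over all genes, threshold 0.05). The trend used age in weeks as a number, given per 8 weeks; age as a factor gave the F-test, the 4 steps and 12 versus 4 weeks. Errors of changes are standard errors, and the number of arrays limits the precision. The fits were tested on simulated data.

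The members, lists and tests were chosen with earlier results of these data known. Members are named where they pass a test, have an unadjusted trend p under 0.05, are among the 3 largest changes per direction in their complex or the extremes of a step, belong to the isoform sets or to complex II; of related lists, those that pass, otherwise the extremes. Other members and list genes named were chosen after their values were seen. Alternatives tried were quantile normalization, median centring, a block for replicate number, a dim filter, the mean over probe sets, other variances, array weights, log2 of age, and leaving out arrays or ages. Replicate numbers were not taken to pair arrays: of 10 pairs of ages, 3 had correlated deviations over 0.1 (range −0.34 to 0.16).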

Additional observations from a re-analysis of the deposited data

How the results depend on the processing

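The count of 0 members called held in all 21 alternative fits of the age trend and in all alternatives of the other comparisons but 1. The smallest limma adjusted p of a member in the trend was 0.13, with trended and robust variances. In that fit 11 members had an unadjusted p under 0.05, and the share of all genes was not counted. In the main fit 4 members had, against 11.7% of all genes. From 6 to 8 weeks 0 to 1 members were called when an array was left out: without 8 weeks replicate 2 the array of narrow distribution stood alone for its age, assumed to vary like the others, and Cox6a2 was called (0.41 ± 0.09, adjusted p = 0.044). Its other 8-week value was 8.59 and that of the array kept 8.94. The number of members below 0 stayed between 50 (without both 4-week arrays) and 66 (array weights), and between 54 and 64 when an array was left out. The members' median change, whose alternatives were chosen after seeing the data, was −0.023 with quantile normalization and −0.029 with median centring, and −0.057 to −0.029 without an array (lowest without 10 weeks replicate 2, nearest 0 without 4 weeks replicate 2); the cause was not tested. The unadjusted count of 4 was 0 without 12 weeks replicate 2. With the replicate block 0 members were called and 161 in place of 162 genes of all passed; it changed no call of a member, and Pdk4 no longer passed (adjusted p = 0.066). Of the 80 members 41 kept their sign in every alternative, 34 below 0 and 7 above. The 2 arrays per age limit the precision of all changes, which had a median SE of 0.066 among members.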

Other observations

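Subunit genes that share their probe sets with another gene were level too. The 3 probe sets of Cox7c, a complex IV subunit gene that the annotation pairs with the predicted gene Gm12338, had changes over age of 0.021 ± 0.074, 0.017 ± 0.071 and 0.023 ± 0.067 (SE), at means of 13.57, 13.77 and 13.76 log2 units. The 2 probe sets of Ndufb4 and Ndufb4b, membrane-arm genes of complex I, had 0.018 ± 0.080 and −0.0012 ± 0.0700. The probe set shared by Ndufs5 and its pseudogene had 0.0070 ± 0.0988, whereas the single-gene probe set of Ndufs5 had −0.086 ± 0.073. None of these passed in limma. On all 6 the lowest array was 8 weeks replicate 1 (9.49 for the Ndufs5 pair against 9.72 to 9.87 elsewhere).

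Ndufa4l2, a hypoxia-induced relative of Ndufa4 that the symbol rule leaves out, lay between 7.28 and 7.53 and had a change of 0.064 ± 0.084 (adjusted p = 0.85).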
